A study of Homo sapiens with 6 samples.

Results

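The subunits of the mitochondrial respiratory chain were examined after silencing of CFB in NCI-H1299, a long-established human lung cancer cell line that the labels class as adenocarcinoma. CFB encodes complement factor B, a protease precursor of the alternative complement pathway. The comparison set 3 libraries labelled sh-CFB, from cells silenced for CFB, against 3 libraries labelled sh-NC, from control cells of the same line. The table's columns are named with si where the titles have sh, so whether short hairpin or small interfering RNA was used is not settled. The labels give no treatment other than the silencing and no time after it, and they do not say whether the 3 libraries of a group were grown apart, so each p-value reflects the variation among these libraries alone, which may be technical. Gene symbols of complexes I to V were taken by name pattern, which matched 150 symbols, and 49 that were not protein coding were left out. The remaining 101 genes, of 28495 in the table, are the members, 88 encoded in the nucleus and 13 on the mitochondrial chromosome.

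The respiratory chain passes electrons from NADH (complex I) and succinate (complex II) through ubiquinone, complex III and cytochrome c to oxygen at complex IV. Complexes I, III and IV pump protons across the inner mitochondrial membrane, and complex V, the ATP synthase, uses the gradient to make ATP. Complex II is built from nuclear genes alone, while the other complexes join subunits of both genomes, so their assembly needs matched supply from the nucleus and from the mitochondrial chromosome. Nuclear subunit genes are classically linked to the transcription factors NRF1, GABP (an ETS factor), YY1 and the estrogen-related receptors.

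Upstream sequence is shown for 4 genes, as letters to set beside the values below. UQCRFS1 and SDHB were lower in sh-CFB and each hold a match to a motif of these factors, and ATP5MC1 and ATP5MC2 encode the same mature protein but had differences of opposite sign, neither past the test. The letters are the 250 bases before the RefSeq gene start on GRCh38.p14, written 5′ to 3′ on the gene's strand, with motif matches in capitals. The windows are chr19:29213152-29213401 on the minus strand for UQCRFS1, chr1:17054033-17054282 on the minus strand for SDHB, chr17:48892537-48892786 on the plus strand for ATP5MC1 and chr12:53676084-53676333 on the minus strand for ATP5MC2.
UQCRFS1: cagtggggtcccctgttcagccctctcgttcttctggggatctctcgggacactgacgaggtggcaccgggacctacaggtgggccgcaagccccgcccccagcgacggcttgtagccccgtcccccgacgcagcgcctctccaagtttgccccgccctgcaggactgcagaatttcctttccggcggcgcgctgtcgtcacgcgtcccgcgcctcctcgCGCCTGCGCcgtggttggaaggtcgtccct
SDHB: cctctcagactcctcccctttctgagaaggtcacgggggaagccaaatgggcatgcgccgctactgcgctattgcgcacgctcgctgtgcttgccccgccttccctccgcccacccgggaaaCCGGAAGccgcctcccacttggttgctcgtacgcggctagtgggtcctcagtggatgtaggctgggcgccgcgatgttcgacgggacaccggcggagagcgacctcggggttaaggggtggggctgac
ATP5MC1: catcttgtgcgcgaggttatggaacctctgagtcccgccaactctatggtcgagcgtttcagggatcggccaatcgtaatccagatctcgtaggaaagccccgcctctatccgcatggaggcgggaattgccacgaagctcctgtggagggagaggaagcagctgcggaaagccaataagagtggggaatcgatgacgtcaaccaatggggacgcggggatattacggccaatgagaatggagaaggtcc
ATP5MC2: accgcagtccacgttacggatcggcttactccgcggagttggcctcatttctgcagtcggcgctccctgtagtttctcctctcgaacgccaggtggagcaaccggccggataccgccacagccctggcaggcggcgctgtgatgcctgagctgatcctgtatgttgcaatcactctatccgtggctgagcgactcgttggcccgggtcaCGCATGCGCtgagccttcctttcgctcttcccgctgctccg
The capitals mark an NRF1 motif starting 30 bases before the gene start in UQCRFS1 and 41 bases before it in ATP5MC2, both read on the other strand, and an ETS motif starting 128 bases before it in SDHB. ATP5MC1 held none of the motifs, and the match in ATP5MC2 appeared only after the NRF1 motif was shortened following a first search. The search used the short forms NRF1 GCGCANGCG, ETS CCGGAAG, YY1 AAGATGGCG and ERR TCAAGGTCA on both strands, in windows from 250 bases before to 50 after the start, and matches could overlap one another; a longer or shorter form of a motif would match other windows. SDHB also holds a YY1 match 10 bases past its start, outside the letters printed. RefSeq windows were found for 69 of the 88 nuclear members. The NRF1 letters were in 31.9% of these 69, against 16.2% of the 9026 tested genes with a window and 8.05% of all 27305 windows. ETS letters were in 29%, 20.6% and 10.7% of the same sets, YY1 letters in 11.6%, 4.3% and 1.85%, and ERR letters in 1.45%, 0.144% and 0.359%. Members with and without a match had like medians of the log2 difference between groups, -0.22 (21 tested genes) and -0.24 (43) for NRF1 and -0.23 (20) and -0.24 (44) for ETS. Of the 6 lower members with a window, 2 held the NRF1 letters (33.3%), 1 the ETS letters (16.7%) and 2 the YY1 letters (33.3%). NDUFB6 and ATP5F1A, also lower, held no match. A match is a run of letters and not a shown binding site.

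The libraries held 26.2, 33.4 and 38.4 M reads (M, 1e6) in sh-CFB 1, 2 and 3 against 39.4, 40.0 and 32.9 M in sh-NC 1, 2 and 3, as recovered from the deposited values. Values are FPKM, that is, reads scaled to gene length in kilobases and to library depth in M reads. CFB itself was near the limit of detection, with 0, 0 and 2 reads in sh-CFB against 1, 6 and 5 in sh-NC (two-sided exact permutation p = 0.2; the smallest possible is 0.1), so the silenced gene gave no check of the labels. Of the epithelial markers, KRT18 had a mean of 168 FPKM over the 6 libraries and KRT8 44.2. The others were low, with KRT7 at 1.47, KRT19 at 0.114, EPCAM at 0.0559 and CDH1 at 0.00143. The epithelial label thus rested on KRT8 and KRT18. Of the mesenchymal markers, VIM had a mean of 421, and ZEB1, CDH2 and FN1 had 2.22, 2.01 and 1.66. None of the 4 lung adenocarcinoma lineage markers in the table reached a mean of 1 FPKM, and their summed level ran from 0.269 to 0.371 FPKM in sh-CFB and from 0.319 to 0.679 in sh-NC. Immune, fibroblast and endothelial marker sums were at most 0.0174, 0.329 and 0.196 FPKM in any library. The first principal component of all tested genes held 56.6% of the variance, with sh-CFB 1 and sh-NC 1 at its ends.

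Of the 101 members, 93 passed the filter of a mean of at least 0.5 FPKM and were tested. In sh-CFB 8 of the 93 were lower and 0 were higher (limma on log2(FPKM + 0.5), Benjamini-Hochberg adjusted p under 0.05 over 12466 genes), against 5.71% lower, 1.74% higher and 7.45% either way among all tested genes. With voom on recovered reads 6 were lower and 0 higher, beside 4.26%, 1.17% and 5.43% of all tested genes. At an unadjusted p under 0.05, 32 members were lower and 2 higher, where the shares of all tested genes were 18.6% and 7.28%. All 8 were nuclear genes: NDUFA6, NDUFA8, NDUFB6 and NDUFC2 of complex I, SDHB and SDHC of complex II, UQCRFS1 of complex III and ATP5F1A of complex V. In bulk RNA, fewer cells with a transcript and less of it per cell cannot be told apart. The median log2 difference was -0.24 over the 80 tested nuclear members and -0.36 over the 13 mitochondrial members, against -0.15 over all tested genes. With median-of-ratios factors in place of the deposited scaling 0 members passed, the median of all tested genes moved to 0.02, that of the nuclear members to -0.06 and that of the mitochondrial members to -0.16, so the nuclear members stood at -0.09 and -0.08 relative to the median gene under the 2 scalings and the mitochondrial members at -0.21 and -0.18. This shift rested on single libraries: without sh-NC 3 it was 0.03 for the nuclear and -0.01 for the mitochondrial members, and with any 1 library left out it ran from -0.20 to 0.03 and from -0.41 to -0.01. Differences were negative for 63 of the 80 tested nuclear members and positive for 17, beside 8437 negative and 4029 positive of 12466 tested genes. With median-of-ratios factors 31 of these members were positive, beside 6528 of all tested genes.

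Groups did not overlap for 35 members lower in sh-CFB and 2 higher, where 23.6% of all tested genes were lower and 10.0% higher in that way. Of these, 34 of the 35 and both higher ones, COX7A2L and ATP5MC2, are nuclear.

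**Figure D1:**
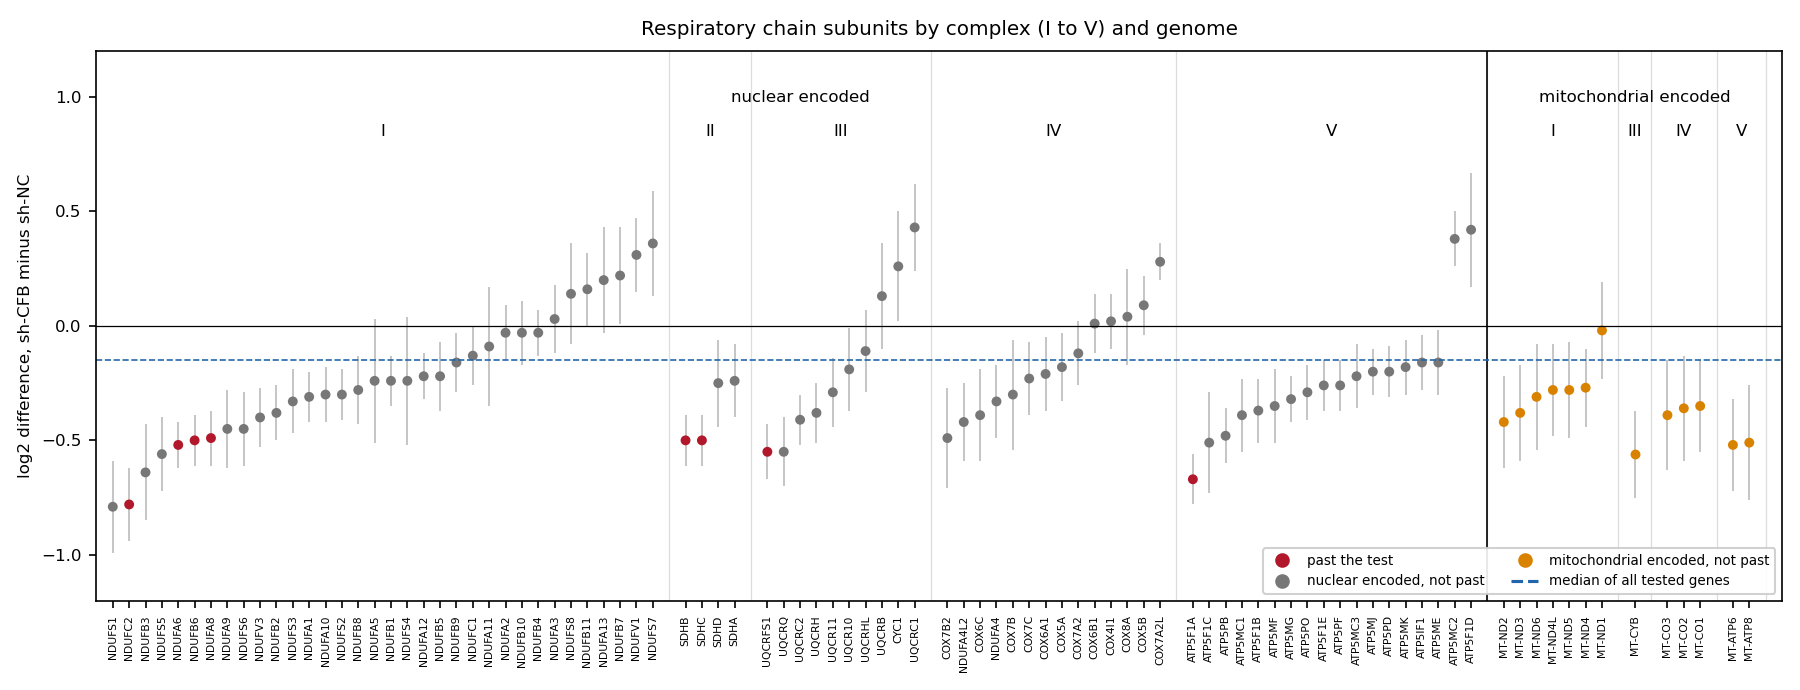
Log2 difference (sh-CFB minus sh-NC, with its standard error as bars) of the 93 tested subunit genes, ordered by complex and by genome. The 8 genes past the test, in red, are nuclear genes with differences from -0.78 to -0.49, and the 13 mitochondrial genes, in orange, all lie below 0 without passing; the dashed line is the median of all tested genes at -0.15.

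Complex I takes electrons from NADH and passes them along flavin and iron-sulfur centres in its peripheral arm, and its membrane arm pumps protons. The median difference of its 34 tested nuclear members was -0.24, beside -0.15 over all tested genes. Of the 34, 4 were lower and 30 did not pass, beside 5.71% lower among all tested genes. All 4 belong to the 28 tested supernumerary subunits among the members, which surround the catalytic core and help in assembly and stability. NDUFC2, a membrane arm subunit (chromosome 11, 78068304 to 78080219), had 2.42, 2.51 and 2.24 FPKM in sh-CFB against 4.44, 3.75 and 5.25 in sh-NC. That is a difference of -0.78 (SE 0.16, adjusted p = 0.0303 with limma), and every sh-CFB library lay below every sh-NC library. Part of its exons, 16.3%, is shared on the same strand with the readthrough gene NDUFC2-KCTD14, which was not analysed here.

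NDUFA6, an LYR-motif subunit that binds the acyl carrier protein NDUFAB1 (chromosome 22, 42085525 to 42090955), had 44.6, 50.6 and 41.4 FPKM in sh-CFB against 66.8, 62.7 and 65.9 in sh-NC, a difference of -0.52 (SE 0.10, adjusted p = 0.0273 with limma). NDUFB6 of the membrane arm (chromosome 9, 32552999 to 32573184) had 20.9, 23.3 and 21.3 FPKM in sh-CFB against 29.5, 28.9 and 35.0 in sh-NC (-0.50, SE 0.11, adjusted p = 0.0378). For NDUFA8, a cysteine-motif subunit facing the intermembrane space (chromosome 9, 122144058 to 122159819), the values were 92.4, 104 and 95.5 FPKM in sh-CFB against 124, 128 and 159 in sh-NC (-0.49, SE 0.12, adjusted p = 0.0482). The groups did not overlap in any of these 3 genes.

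None of the 6 tested nuclear core subunits of complex I passed the limma test or voom. At an unadjusted p under 0.05, 3 were lower and 0 higher, beside 18.6% and 7.28% of all tested genes. The 6 split in sign, 3 negative and 3 positive, with a median of -0.08. NDUFS1, the largest core subunit and a carrier of iron-sulfur clusters, had the lowest difference of all members. Its values were 1.79, 2.97 and 3.03 FPKM in sh-CFB against 5.51, 4.58 and 4.28 in sh-NC (-0.79, SE 0.20, adjusted p = 0.0580 with limma), without overlap but with a wide spread in sh-CFB. NDUFS7, which holds the last iron-sulfur centre before ubiquinone, was at the other end with 8.09, 5.91 and 4.51 FPKM in sh-CFB against 3.65, 4.50 and 5.81 in sh-NC, overlapping groups (0.36, SE 0.23, adjusted p = 0.379). NDUFV1, the flavin-binding subunit, stood at 0.31 (adjusted p = 0.262). The other 27 tested nuclear genes of complex I had differences from -0.64 for NDUFB3 to 0.22 for NDUFB7, with adjusted p-values of at least 0.0779.

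Core subunit NDUFV2 and accessory subunit NDUFA7 were below the filter, with 0.235 to 0.420 and 0.179 to 0.430 FPKM over the 6 libraries. Both encode parts of the complex, and 28.4% and 32.3% of their annotated exons lie under another gene on the same strand. A pseudogene of NDUFV2, NDUFV2P1, was listed at 1.47, 1.55 and 1.64 FPKM in sh-CFB against 2.07, 2.92 and 2.74 in sh-NC, above its parent in every library. How reads that fit several places were counted is not given in the sources used here, so the low values of NDUFV2 and NDUFA7 are uncertain as levels.

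Complex II oxidises succinate and is also the succinate dehydrogenase of the tricarboxylic acid cycle. Of its 4 genes 2 were lower and 2 did not pass, beside 5.71% lower among all tested genes. All 4 differences were negative, as were 8437 of all 12466 tested genes. SDHB, the iron-sulfur subunit (chromosome 1, 17018722 to 17054170), had 41.7, 43.8 and 42.1 FPKM in sh-CFB against 55.9, 56.5 and 69.2 in sh-NC (-0.50, SE 0.11, adjusted p = 0.0362 with limma). SDHC, a membrane anchor that binds haem (chromosome 1, 161314257 to 161375340), had 76.4, 85.7 and 88.5 FPKM in sh-CFB against 111, 113 and 131 in sh-NC (-0.50, SE 0.11, adjusted p = 0.0341). Both were lower in each sh-CFB library than in any sh-NC library.

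SDHA, the flavoprotein, had 1.1, 1.22 and 1.39 FPKM in sh-CFB against 1.5, 1.45 and 1.69 in sh-NC, also without overlap (-0.24, adjusted p = 0.384 with limma). Its copies SDHAP1 and SDHAP4 were listed at means of 2.37 and 1.67 FPKM, so reads shared with them are uncertain. SDHD, the other anchor, overlapped between groups, with 6.63, 9.90 and 10.6 FPKM in sh-CFB against 12.4, 9.93 and 9.86 in sh-NC (-0.25, adjusted p = 0.436). Summed over the 4 genes, complex II stood at 126, 141 and 143 FPKM in sh-CFB against 181, 181 and 211 in sh-NC. This sum, taken mainly from SDHC and SDHB, did not overlap between groups, while the summed FPKM of the nuclear genes of each other complex did. As shares of all FPKM, the nuclear sums of complexes I and V did not overlap either, with 0.717, 0.682 and 0.623% in sh-CFB against 0.724, 0.752 and 0.813% in sh-NC for complex I and 0.512, 0.508 and 0.482% against 0.565, 0.615 and 0.649% for complex V.

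Complex III moves electrons from ubiquinol to cytochrome c. Of 10 nuclear members 1 was lower and 9 did not pass, beside 5.71% lower among all tested genes. UQCRFS1, the Rieske iron-sulfur protein (chromosome 19, 29205321 to 29213541), had 90.0, 80.9 and 83.5 FPKM in sh-CFB against 110.4, 119 and 147 in sh-NC, without overlap (-0.55, SE 0.12, adjusted p = 0.0401 with limma). Its copy UQCRFS1P1 was listed at 9.72, 8.33 and 7.59 FPKM in sh-CFB against 9.34, 13.2 and 10.5 in sh-NC. UQCRQ, a small subunit beside cytochrome b, had the same difference with a wider spread (-0.55, SE 0.15, adjusted p = 0.0678).

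Of the 3 catalytic subunits of complex III, UQCRFS1 was lower and CYC1 and MT-CYB (given with the mitochondrial genes) did not pass. CYC1, the haem protein cytochrome c1, had 570, 376 and 318 FPKM in sh-CFB against 268, 353 and 422 in sh-NC, spread about as widely within groups as between them (0.26, SE 0.24, adjusted p = 0.545). UQCRC1, one of a pair of core proteins without a redox centre, had the highest difference of all members, with 420.1, 319 and 287 FPKM in sh-CFB against 204, 257 and 301 in sh-NC, overlapping (0.43, SE 0.19, adjusted p = 0.195). Its partner UQCRC2 had 11.0, 12.7 and 13.1 in sh-CFB against 15.2, 17.7 and 16.4 in sh-NC (-0.41, SE 0.11, adjusted p = 0.0704). The ratio of UQCRC1 to UQCRC2 was 38.3, 25.1 and 21.9 in sh-CFB against 13.4, 14.5 and 18.3 in sh-NC, a pair chosen after the values were seen. The 2 genes differ in GC content, 59.5% against 45.5%. Their ratio was highest in sh-CFB 1 and lowest in sh-NC 1, the libraries at the ends of the first principal component. UQCRH, the hinge protein, had 84.5, 115 and 107 FPKM in sh-CFB against 131, 129 and 137 in sh-NC (-0.38, adjusted p = 0.109), and its copy UQCRHL had 2.5 to 3.72 and 3.14 to 3.98, overlapping.

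Complex IV, cytochrome c oxidase, has a core from the mitochondrial genome and nuclear subunits that include tissue isoforms. None of its 14 tested nuclear members passed the limma test or voom, and their differences ran from -0.49 to 0.28 with a median of -0.20. At an unadjusted p under 0.05, 1 was lower and 1 higher, beside 18.6% and 7.28% of all tested genes. Among isoform pairs, COX4I1, the common form of subunit 4, had 277, 261 and 260.4 FPKM in sh-CFB against 235, 251 and 303 in sh-NC (0.02, adjusted p = 0.922). COX6A1 had 58.2, 51.5 and 50.1 in sh-CFB against 52.2, 56.8 and 78.0 in sh-NC (-0.21), and COX6B1 had 714, 693 and 649 in sh-CFB against 588, 667 and 794 in sh-NC (0.01). The muscle isoforms COX6A2 and COX7A1 and the testis isoforms COX6B2 and COX8C were at most 0.518 FPKM in any library and were not tested, and COX4I2 was not analysed here.

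COX8A, the common form of subunit 8, overlapped between groups at 463, 325 and 303 FPKM in sh-CFB against 281, 345 and 432 in sh-NC (0.04). COX7B2, a paralog of COX7B known mainly from testis, was present in these cells. Its values were 22.4, 40.4 and 27.7 FPKM in sh-CFB against 50.3, 39.3 and 35.6 in sh-NC (-0.49, SE 0.22, adjusted p = 0.212 with limma), the lowest difference of complex IV, with overlapping groups. COX7B itself had 60.6, 112 and 62.9 in sh-CFB against 112, 91.5 and 78.5 in sh-NC, so the ratio of COX7B to COX7B2 stayed between 2.21 and 2.78 in all 6 libraries. The remaining nuclear genes of the complex were COX5A (-0.18), COX5B (0.09), COX6C (-0.39) and COX7C (-0.23), with adjusted p-values of at least 0.258.

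COX7A2L, a factor of respiratory supercomplexes related to subunit 7a, had 71.8, 73.4 and 74.3 FPKM in sh-CFB against 58.3, 59.9 and 62.5 in sh-NC (0.28, SE 0.08), and it did not pass the test (adjusted p = 0.0802 with limma). COX7A2, the subunit 7a of most tissues, had 165, 191 and 165 FPKM in sh-CFB against 159.7, 186 and 222 in sh-NC (-0.12, adjusted p = 0.638). The ratio of COX7A2L to COX7A2 was 0.435, 0.385 and 0.451 in sh-CFB against 0.365, 0.321 and 0.282 in sh-NC, a pair chosen after the values were seen. NDUFA4, once counted to complex I and now placed with complex IV, had 24.2, 35.6 and 25.1 in sh-CFB against 38.5, 34.2 and 33.3 in sh-NC (-0.33, adjusted p = 0.223). Its hypoxia-inducible paralog NDUFA4L2 had 0.367, 0.395 and 0.417 FPKM in sh-CFB against 0.705, 0.864 and 0.530 in sh-NC, low but without overlap (-0.42, adjusted p = 0.173).

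Complex V consists of the F1 head that makes ATP, a rotating c ring, a peripheral stalk and small membrane subunits. Of its 18 tested nuclear members 1 was lower and 17 did not pass, a share of 5.56% close to the 5.71% of all tested genes. The median difference was -0.26, beside -0.15 over all tested genes. ATP5F1A, the alpha subunit of F1 (chromosome 18, 46080248 to 46104334), had the lowest adjusted p of all members. Its values were 26.0, 31.5 and 31.6 FPKM in sh-CFB against 46.2, 46.6 and 49.6 in sh-NC (means 29.7 ± 3.22 against 47.5 ± 1.81, SD over 3 libraries a group; -0.67, SE 0.11, adjusted p = 0.0148 with limma). ATP5F1B, the catalytic beta subunit, had 725, 682 and 635 in sh-CFB against 751, 882 and 1020.3 in sh-NC, also without overlap (-0.37, SE 0.14, adjusted p = 0.149).

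ATP5F1D, the delta subunit of the central stalk, was at the other end of complex V with 201, 120.1 and 119 FPKM in sh-CFB against 79.5, 111 and 136 in sh-NC, overlapping (0.42, SE 0.25, adjusted p = 0.342). All 4 peripheral stalk genes had negative differences, from -0.48 for ATP5PB (adjusted p = 0.0559 with limma) to -0.20 for ATP5PD, and none passed that test or voom. Of the 4, 3 were lower at an unadjusted p under 0.05, beside 18.6% of all tested genes. ATP5IF1, which inhibits ATP hydrolysis by the complex, had 47.4, 40.1 and 42.8 in sh-CFB against 42.2, 50.7 and 53.6 in sh-NC (-0.16, adjusted p = 0.432). ATP5F1C and ATP5F1E, the gamma and epsilon subunits, stood at -0.51 and -0.26 (adjusted p = 0.201 and 0.188). The 5 small nuclear membrane subunits ATP5ME, ATP5MF, ATP5MG, ATP5MJ and ATP5MK ran from -0.35 to -0.16, with adjusted p-values of at least 0.0987.

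**Figure D2:**
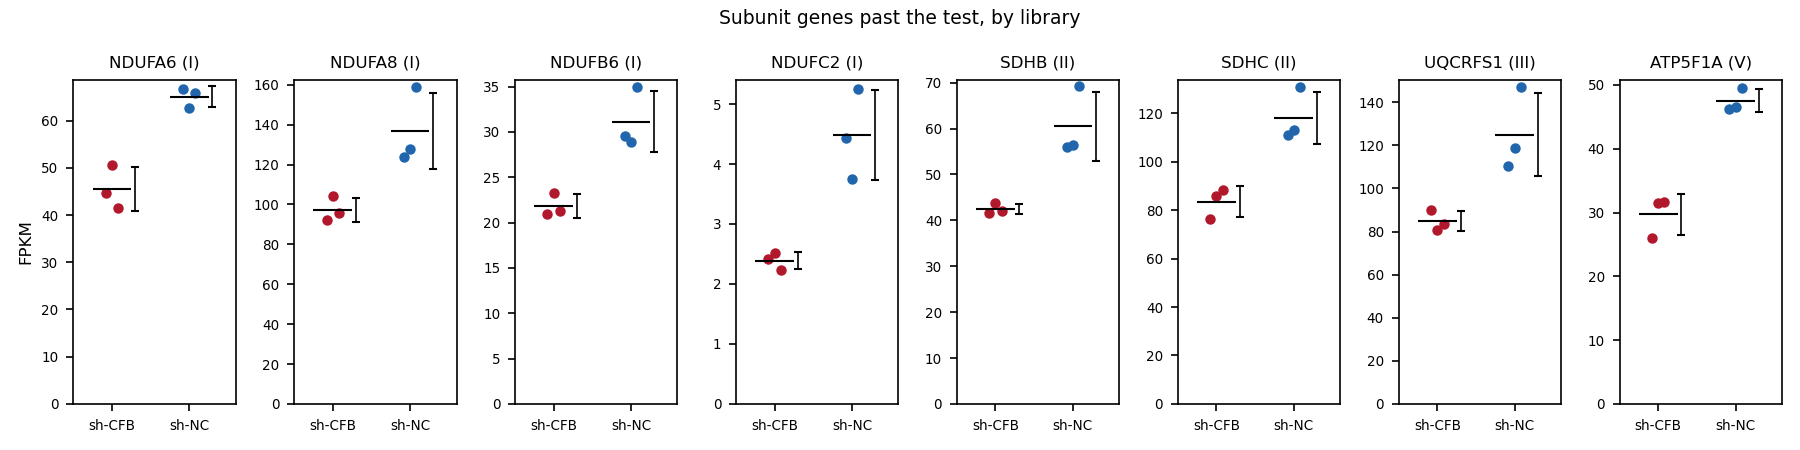
FPKM by library of the 8 subunit genes past the test, with the mean as a line and the SD (n = 3) as a bar; each panel has its own axis from 0. In each gene the 3 sh-CFB libraries lie below the 3 sh-NC libraries, from 2.24 to 2.51 against 3.75 to 5.25 for NDUFC2 and from 26.0 to 31.6 against 46.2 to 49.6 for ATP5F1A.

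The c ring is encoded by 3 genes, ATP5MC1, ATP5MC2 and ATP5MC3, whose products share 1 mature protein and differ in the targeting peptide that is cut off on import. ATP5MC2 had 154, 122 and 127 FPKM in sh-CFB against 92.6, 103 and 113 in sh-NC, without overlap (0.38, SE 0.12), and did not pass the test (adjusted p = 0.105 with limma). ATP5MC1 had 78.4, 63.2 and 61.2 in sh-CFB against 73.7, 86.5 and 108 in sh-NC, overlapping (-0.39, SE 0.16, adjusted p = 0.174). For ATP5MC3 the values were 89.3, 86.0 and 79.8 in sh-CFB against 83.5, 97.7 and 120.1 in sh-NC (-0.22, SE 0.14, adjusted p = 0.353).

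Within a library the balance of the 3 genes therefore differed between the groups. The ratio of ATP5MC2 to ATP5MC1 was 1.97, 1.93 and 2.08 in sh-CFB against 1.26, 1.19 and 1.05 in sh-NC, and that of ATP5MC2 to ATP5MC3 was 1.73, 1.42 and 1.59 in sh-CFB against 1.11, 1.05 and 0.945 in sh-NC. Neither pair overlapped, and a ratio within a library does not change with the scaling between libraries. These ratios were chosen after the values were seen and carry no test. Of the 2 upstream windows printed above, that of ATP5MC2 holds an NRF1 match and that of ATP5MC1 none of the 4 motifs. The match in ATP5MC2 appeared only after the NRF1 motif was shortened following a first search, and ATP5MC3 had no window. Any link of the letters to the ratios was not tested. A processed copy, ATP5MC2P4, was listed at 8.90, 8.49 and 6.88 FPKM in sh-CFB against 5.67, 7.38 and 5.57 in sh-NC, well under its parent.

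**Figure D3:**
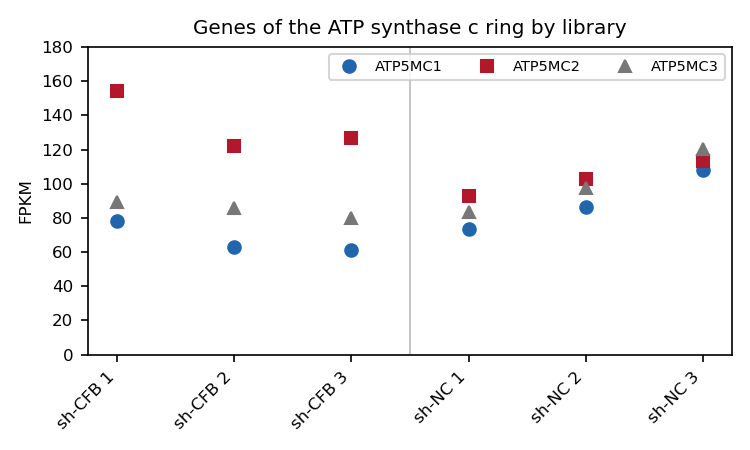
FPKM by library of the 3 genes for the c subunit of ATP synthase. ATP5MC2, as squares, is the highest of the 3 genes in each sh-CFB library, at 122 to 154. It is also the highest in sh-NC 1 and sh-NC 2, at 92.6 and 103. In sh-NC 3 it is at 113, between ATP5MC1 at 108 and ATP5MC3 at 120.1.

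The mitochondrial chromosome encodes 13 of the subunits, all read from long precursor RNAs that are cut at the tRNAs between them. All 13 had negative differences, or 12 with median-of-ratios factors, where MT-ND1 was above 0. Of all 12466 tested genes, 8437 were negative as deposited, and 6528 were positive with those factors. Of the 13, 0 passed the limma test or voom, and 2 were lower at an unadjusted p under 0.05, beside 18.6% of all tested genes. Summed, the 13 genes held 3.66, 4.75 and 4.81% of all FPKM in sh-CFB against 6.27, 4.66 and 6.83% in sh-NC, so sh-NC 2 lay among the sh-CFB libraries. The 88 nuclear genes held 2.37, 2.28 and 2.12% in sh-CFB against 2.33, 2.5 and 2.7% in sh-NC, which also overlapped. The ratio of mitochondrial to nuclear summed FPKM was 1.55, 2.09 and 2.27 in sh-CFB against 2.69, 1.86 and 2.53 in sh-NC. No shift between the genomes larger than the spread between libraries was seen.

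**Figure D4:**
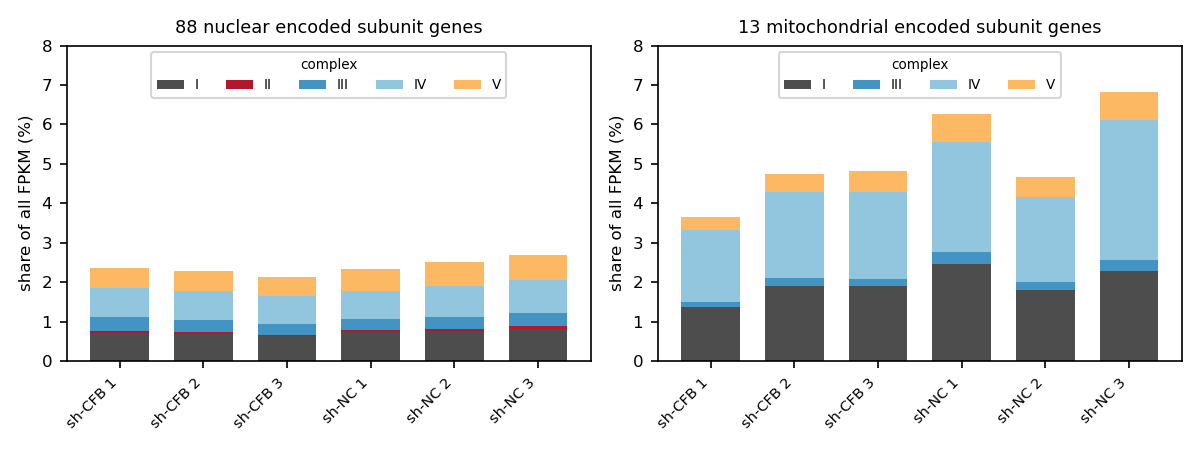
Share of all FPKM held by the 88 nuclear (left) and 13 mitochondrial (right) subunit genes in each library, stacked by complex. Nuclear shares run from 2.12% to 2.7% and mitochondrial shares from 3.66% to 6.83%, with sh-NC 2 at 4.66% beside the sh-CFB libraries.

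Complex III has 1 mitochondrial subunit, MT-CYB, the cytochrome b that holds both ubiquinone sites. It was the only mitochondrial gene whose groups did not overlap, with 457, 611 and 633 FPKM in sh-CFB against 929.9, 648 and 945 in sh-NC (-0.56, SE 0.19, adjusted p = 0.118 with limma). Among the catalytic core genes of complex IV, MT-CO1 had 1952, 2599 and 2638 FPKM in sh-CFB against 3171, 2432 and 3574 in sh-NC (-0.35). MT-CO2, which takes electrons from cytochrome c, had 2974, 3065 and 2974 in sh-CFB against 3609, 2908 and 5502 in sh-NC (-0.36), and it was the highest mitochondrial gene per length in 6 of 6 libraries. MT-CO3 had 1396, 1595 and 1535 in sh-CFB against 1827, 1466 and 2878 in sh-NC (-0.39). In all 3, sh-NC 2 lay inside or under the sh-CFB range and sh-NC 3 was the highest. The ratio of MT-CO1 to MT-CYB, chosen after the values were seen, was 4.27, 4.25 and 4.16 in sh-CFB against 3.41, 3.75 and 3.78 in sh-NC.

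The 7 mitochondrial genes of complex I encode its membrane core, and their differences ran from -0.42 to -0.02. MT-ND1, next to the ubiquinone site, had 599, 827 and 999 FPKM in sh-CFB against 947, 683 and 792 in sh-NC (-0.02). MT-ND2 had 326, 449 and 528 in sh-CFB against 622, 467 and 634 in sh-NC (-0.42), and MT-ND3 had 1218, 1353 and 1148 in sh-CFB against 1569.9, 1207 and 2189.7 in sh-NC (-0.38). These are parts of the proton-pumping arm and the bend beside it. MT-ND4 had 1027, 1251 and 1317 in sh-CFB against 1493, 1188 and 1685 in sh-NC (-0.27). MT-ND4L had 810, 1194 and 988 in sh-CFB against 1541, 1072 and 1044 in sh-NC (-0.28), and MT-ND5 had 395, 675 and 565 in sh-CFB against 762, 551 and 649 in sh-NC (-0.28). All of these overlapped between groups. MT-ND6, the subunit gene on the other strand, had 373, 557 and 550.1 in sh-CFB against 632, 452 and 756 in sh-NC (-0.31); its RNA is known to carry little or no poly(A) tail, which the poly(A) library kit selects for, and the strand setting of the counting is not given in the sources used here.

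Complex V takes 2 subunits of its membrane part from the mitochondrial chromosome, and their reading frames overlap. MT-ATP6, the proton channel, had 885, 1102 and 1233 FPKM in sh-CFB against 1568, 1183 and 1905 in sh-NC (-0.52, adjusted p = 0.165 with limma). MT-ATP8 had 261, 419 and 415 in sh-CFB against 660.5, 384 and 513 in sh-NC (-0.51, adjusted p = 0.237), and it was the lowest mitochondrial gene per length in 5 libraries, with MT-ND2 the lowest in 1. The shared stretch is printed because reads in it fit both genes. It is chrM:8527-8572 on the plus strand of GRCh38 (GENCODE 29), with the start codon of MT-ATP6 and the stop codon of MT-ATP8 in capitals.
MT-ATP8 and MT-ATP6: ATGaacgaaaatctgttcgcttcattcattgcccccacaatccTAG
These 46 bases are 22.2% of MT-ATP8 and 6.8% of MT-ATP6. The ratio of MT-ATP6 to MT-ATP8 ran from 2.37 to 3.71 over the libraries with overlapping groups.

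Library sh-CFB 1 was the lowest of the 6 in 11 of the 13 mitochondrial genes, and sh-NC 3 was the highest in 9. Without sh-CFB 1 the median mitochondrial difference was -0.22, beside -0.05 for all tested genes. Without sh-NC 3 it was -0.23, beside -0.22 for all tested genes, so the mitochondrial genes then stood level with the median gene. Without sh-NC 2 it was -0.56, and in these 3 cases 0 of the 13 genes passed the limma test.

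The calls among the members changed with the libraries used. Leaving out any 1 library left 1 or 0 members past the limma test: ATP5F1A alone without sh-CFB 1, sh-CFB 3, sh-NC 1 or sh-NC 3, and 0 without sh-CFB 2 or sh-NC 2, where ATP5F1A had -0.72 (adjusted p = 0.0622) and -0.69 (adjusted p = 0.0900). The counts over all tested genes fell in the same way, from 929 to between 20 and 540. With both replicate 1 libraries left out 8 members were lower, beside 529 of all 12466 tested genes. Of these 8 members, 4 were among the first 8 (ATP5F1A, SDHB, SDHC and UQCRFS1) and 4 were not (ATP5MC1, NDUFB2, NDUFS6 and UQCRQ). None of the first 8 members changed sign in the 20 other settings tried.

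GC content moved with the differences of the nuclear members. Over the 80 tested ones the Spearman correlation of the log2 difference with the GC content of the longest transcript was 0.35, and over 12397 tested genes it was 0.31, given as a description of values that share 6 libraries. Deviations of a library from the mean over all 6 correlated with GC content at 0.63, -0.19 and -0.01 in sh-CFB 1, 2 and 3 and at -0.61, -0.24 and 0.17 in sh-NC 1, 2 and 3, so sh-CFB 1 and sh-NC 1 stood at opposite ends. Without these 2 libraries the correlation over the members was -0.10.

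Of the 18 members with a GC content of at least 55%, 12 had positive differences, beside 2206 of the 3835 tested genes of that class. These 18 members had a median of 0.09, and 0 passed the limma test or voom. UQCRC1, CYC1, ATP5F1D, NDUFS7 and NDUFV1 belong to them. The 33 members between 45% and 55% had a median of -0.30 and 6 lower, and the 29 under 45% had a median of -0.26 and 2 lower. The all-gene medians in these 3 classes were 0.06, -0.23 and -0.20, and 3.52%, 9.48% and 4.0% of all tested genes in them were lower.

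After a correction of each library for GC content and length 2 members were lower, where 6.09% of tested genes were lower and 4.67% higher. They were NDUFA8 (-0.37, adjusted p = 0.0458 with limma) and NDUFS1 (-0.55, adjusted p = 0.0226), while ATP5F1A stood at -0.38 (adjusted p = 0.137). ATP5MC2 and COX7A2L, whose GC contents are 48.3% and 43.5%, went the other way, to 0.68 (adjusted p = 0.0501) and 0.54 (adjusted p = 0.0661). The median became -0.08 for the nuclear members, -0.19 for the mitochondrial members and 0.01 for all tested genes. With median-of-ratios factors 0 members passed, against 1.11% of tested genes lower, 0.545% higher and 1.65% either way. The share of higher genes among all calls was 23.4% as deposited, 33% with those factors, 43.4% after the GC and length correction and 42.2% after quantile normalization. In that last setting 9 members were lower and ATP5MC2 was higher (0.38, adjusted p = 0.0343 with limma), beside 636 lower and 465 higher of all 12466 tested genes.

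**Figure D5:**
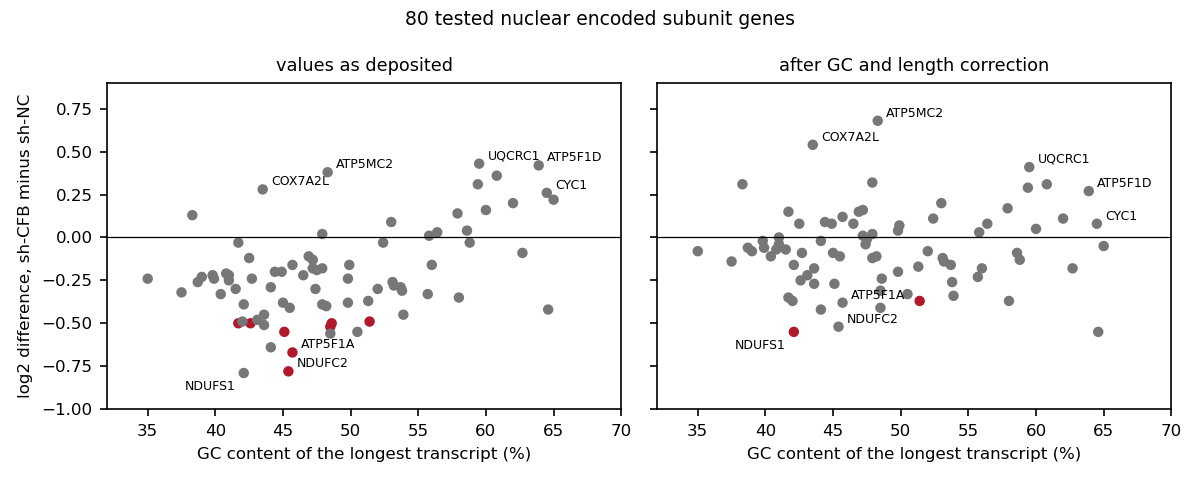
Log2 difference of the 80 tested nuclear subunit genes against the GC content of the longest transcript, from the values as deposited (left) and after correction of each library for GC content and length (right), with genes past the test in red. The rise with GC content on the left (Spearman 0.35) is 0.08 on the right, where ATP5MC2 and COX7A2L stand highest at 0.68 and 0.54.

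The other genes that serve the chain were read from lists. Among electron carriers, quinone synthesis and the carriers of nucleotides and phosphate, 7 of 24 tested genes were lower, 0 higher and 17 did not pass, with a median of -0.30, beside 5.71% lower among all tested genes. CYCS, which encodes cytochrome c, had 10.9, 13.2 and 12.2 FPKM in sh-CFB against 24.8, 23.0 and 23.1 in sh-NC (-0.94, SE 0.11, adjusted p = 0.00855 with limma), a larger difference than any subunit gene showed. It kept its call after the GC and length correction (-0.71, adjusted p = 0.0189) and with median-of-ratios factors (-0.74, adjusted p = 0.0384), and lost it without sh-NC 2 (-0.96, adjusted p = 0.0694). PDSS1 and COQ3, enzymes of ubiquinone synthesis, stood at -0.88 (adjusted p = 0.0313) and -0.80 (adjusted p = 0.0370), and VDAC3, an outer membrane channel, at -0.70 (adjusted p = 0.0416). SLC25A5, an ADP/ATP carrier, was lower too (-0.52, adjusted p = 0.0272), but not after correction for GC and length (-0.31, adjusted p = 0.0502) or with median-of-ratios factors (-0.31, adjusted p = 0.388). Of the 7 lower genes 4 were lower after that correction and 2 with those factors, CYCS and PDSS1.

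The list for complex I assembly also holds NDUFAB1, a subunit gene that the name pattern left out of the members. In this list 3 of 16 tested genes were lower and 0 higher, beside 5.71% lower among all tested genes. With median-of-ratios factors 0 of the 16 were lower. TIMMDC1, a membrane arm assembly factor, had 9.84, 9.72 and 11.0 FPKM in sh-CFB against 17.6, 15.9 and 18.4 in sh-NC (-0.74, SE 0.11, adjusted p = 0.0132 with limma). NDUFAB1, the acyl carrier protein that NDUFA6 binds, had 48.0, 44.4 and 46.5 in sh-CFB against 64.1, 68.5 and 80.8 in sh-NC (-0.61, adjusted p = 0.0208). NDUFAF8 stood at -0.55 (adjusted p = 0.0312), and TIMMDC1 and NDUFAF8 also passed after correction for GC and length. For the assembly of complexes II to V, 2 of 36 were lower and 0 higher, TMEM70, an ATP synthase factor (-0.59, adjusted p = 0.0479), and SCO1, a copper chaperone of complex IV (-0.55, adjusted p = 0.0479), a share close to the 5.71% of all tested genes. SCO1 did not pass after correction for GC and length (-0.27, adjusted p = 0.303), and with median-of-ratios factors neither did (-0.38, adjusted p = 0.135, for SCO1 and -0.40, adjusted p = 0.0918, for TMEM70).

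Among genes that copy, transcribe and translate the mitochondrial chromosome, 5 of 34 tested were lower and 0 higher, beside 5.71% lower among all tested genes. They were the RNA helicase SUPV3L1 (-0.81, adjusted p = 0.0455 with limma), the exonuclease MGME1 (-0.76, adjusted p = 0.0250), the RNA-processing factor FASTKD5 (-0.62, adjusted p = 0.0483), the single-strand binding protein SSBP1 (-0.59, adjusted p = 0.0151) and ELAC2, which cuts tRNAs from the precursor (-0.57, adjusted p = 0.0151). With GC and length corrected, 3 stayed lower (SUPV3L1, MGME1 and ELAC2), while SSBP1 (-0.39, adjusted p = 0.189) and FASTKD5 (-0.34, adjusted p = 0.0703) lost the call, and with median-of-ratios factors MGME1 alone was lower. The polymerase POLRMT (0.12, adjusted p = 0.611) and the packaging factor TFAM (-0.50, adjusted p = 0.264) did not pass. In tricarboxylic acid cycle enzymes 4 of 14 were lower and 0 higher: SUCLG1 (-0.74), FH (-0.73), CS (-0.39) and DLST (-0.37), with adjusted p-values from 0.0141 to 0.0483 by limma, beside 5.71% lower among all tested genes. None of the 4 passed after correction for GC and length, where SUCLG1 stood at -0.52 (adjusted p = 0.107), FH at -0.46 (0.108), CS at -0.11 (0.492) and DLST at -0.15 (0.27), while OGDH was lower (-0.35, adjusted p = 0.0381) and IDH3G higher (0.33, adjusted p = 0.0464). With median-of-ratios factors 0 of the 14 were lower.

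None of the 11 tested nuclear regulators of respiratory genes passed the limma test or voom. At an unadjusted p under 0.05, 2 were lower and 1 higher, beside 18.6% and 7.28% of all tested genes. MYC had 74.5, 79.1 and 88 FPKM in sh-CFB against 65.3, 65.2 and 60.0 in sh-NC (0.34, adjusted p = 0.0767), and it rose after the GC and length correction (0.50, adjusted p = 0.0113). NRF1, whose letters were searched above, had 5.08, 5.32 and 5.0 in sh-CFB against 6.58, 6.97 and 6.45 in sh-NC, without overlap (-0.35, adjusted p = 0.104; -0.05 after that correction). PPARGC1A and PERM1, coactivators of these genes in muscle and other tissues, were at most 0.111 FPKM in any library.

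The level of a gene per length depends on the gene model. The length recovered from the FPKM steps equalled the total exon length in GENCODE 29 for 38 of the 101 members and was at least 1.5 times as long for 7, such as NDUFA10 with 19359 against 9517 bases. Levels per length therefore belong to a gene model that the sources do not name. A ratio of deposited FPKM between groups does not depend on the length. For low genes the log2 differences do, through the pseudocount of 0.5, and the filter at 0.5 FPKM decides which genes are tested. NDUFA9, for example, stood at -0.62, -0.45 and -0.34 with pseudocounts of 0.1, 0.5 and 1. Same-strand exons of another gene cover at least 20% of 8 members, 4 of them not tested. Pseudogenes of 30 members were listed, 51 in all, and 13 of these had a mean of at least 1 FPKM.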

How the data were processed

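Per the labels' protocols, cells were lysed in TRIzol and a stranded kit with poly(A) selection gave the libraries. The FPKM values were made by the authors and deposited as 1 table; the tools named, with GRCh38, were featureCounts 2.0.1, STAR 2.7.3a, Trimmomatic 0.39 and FastQC 0.11.9, per the submitters' processing notes. Not given in the sources used here were the formula for FPKM, the annotation release, the strand setting and how multi-mapping reads were treated. Every per-sample column was used.

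Coordinates came from GENCODE 29, gene types from GENCODE 29 and RefSeq, and symbols from a separate list of gene names. Reads were recovered from the FPKM steps and came out whole within 0.02 for 99.97% of genes; read totals limit precision by counting error only, and 3 reads in a gene of 2000 bases are an FPKM of 0.0375 to 0.0572. The test was limma 3.58.1 (R 4.3.3) with an intensity trend on log2(FPKM + 0.5). It took 12466 genes, those whose mean reached 0.5 FPKM, with Benjamini-Hochberg adjustment over all of them at 0.05. Differences on that scale understate changes of low genes. The fit was tested on simulated data. The rest used matplotlib 3.10.9, scipy 1.17.1, pandas 2.3.3, numpy 2.4.6 and Python 3.11.15. The NRF1 and YY1 motifs were shortened after a first search with longer forms, in which ATP5MC2 had no match. The GC and length correction fitted a spline with 5 degrees of freedom per library.

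The members, gene lists and tests were chosen with earlier results of these data known, so they are no independent support for them. Genes were described by rule: members past the test, the highest and lowest member of each complex and genome, the mitochondrial and isoform members, and from each other list up to 4 genes past the test in each direction or, with none, the gene with the lowest p. Genes outside it were chosen after their values were seen. Of the members these were UQCRQ, UQCRC2, CYC1, NDUFV1, NDUFV2, NDUFA7, SDHD, ATP5F1B, ATP5F1C, ATP5F1E, ATP5PB, COX5A, COX5B, COX6C, COX7C and those given by range. Outside the members they were SLC25A5, ELAC2, OGDH, IDH3G, POLRMT, TFAM, NRF1, PPARGC1A, PERM1 and the pseudogenes. Alternatives were other pseudocounts, filters, scalings, a GC and length correction, a replicate block, voom on recovered reads and each library left out.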

Additional observations from a re-analysis of the deposited data

How the results depend on the processing

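Counts below are of members past the test (8 as reported), then of all genes (929). With no filter on low values they were 1 and 324, with median-of-ratios factors 0 and 206, with the GC and length correction 2 and 1334, and with voom and median-of-ratios factors, added after seeing the data, 1 (NDUFS1) and 318. Without both replicate 1 libraries, also added, they were 8 and 694. Leaving out 1 library gave 0 to 1 members and 20 to 540 genes. The nuclear median of -0.24 became -0.06, -0.08 and -0.05 with median-of-ratios factors, the GC and length correction and voom with those factors, and ran from -0.29 to -0.19 with 1 library left out; the mitochondrial median ran from -0.56 to -0.22. Both pseudocounts, the stricter filter (10 members), equal totals (10, or 12 without the mitochondrial chromosome), quantile normalization (10) and voom (6) kept the member count within 1.5 times of 8. The cause of these differences was not tested.

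Replicate numbers did not pair the libraries: deviations of same-numbered libraries correlated at -0.539, 0.068 and -0.448. With the replicate block 0 genes and 0 members passed (block with GC and length correction also 0 and 0, nuclear median -0.08), and ATP5F1A had an adjusted p of 0.159. The planned edgeR test on recovered reads was not run, since the deposited unit is FPKM. With 3 libraries a group, and with depths of 26.2 to 40.0 M reads, differences of the size seen in most members did not exceed the spread.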

Other observations

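Genes of the table that matched the name pattern but were not protein coding were left out of every count above. Among the pseudogene copies with a mean of at least 1 FPKM, COX6A1P2 was the highest, at 18.6, 21.4 and 12.8 FPKM in sh-CFB against 16.4, 19.2 and 22.1 in sh-NC, and ATP5MFP2 had 4.56, 6.13 and 7.13 in sh-CFB against 7.24, 5.30 and 9.96 in sh-NC. Both overlapped between groups and neither passed the limma test (adjusted p = 0.696 and 0.490).

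Within the F1 head the ratio of ATP5F1A to ATP5F1D was 0.129, 0.262 and 0.265 in sh-CFB against 0.581, 0.421 and 0.363 in sh-NC, without overlap, while that of ATP5F1A to ATP5F1B was 0.0358, 0.0461 and 0.0498 in sh-CFB against 0.0616, 0.0529 and 0.0486 in sh-NC, overlapping. These ratios were chosen after the values were seen and carry no test. ATP5F1A and ATP5F1D had the lowest and the highest difference of complex V, so a gap in their ratio follows from that choice. They differ in GC content, 45.7% against 63.9%. Their ratio was lowest in sh-CFB 1 and highest in sh-NC 1, the libraries at the ends of the first principal component.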
